A study of Gallus gallus with 15 samples.

Results

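The transcripts described here come from the mitochondrial genome, as measured in liver from broiler breeders, the hens that lay the eggs from which meat chickens hatch. They are the 24 rows of the read-count table whose tags begin with EYY68_, out of 24154 gene rows: 2 tags with the ending mgr, for ribosomal RNA (rRNA), and 22 with the ending mgt, for transfer RNA (tRNA). Membership follows from the tag alone. Mitochondrial protein genes were not analysed here. The table does not pair the tags with gene names, and none of the 24 tags (0 matches) occurs in the RefSeq gene table of another chicken assembly, GRCg7b. That table uses the same mgr and mgt endings for its own 2 mitochondrial rRNA and 22 tRNA genes, with tRNA lengths of 65 to 76 bases. Rows are therefore called by their tags, no amino acid or rRNA size is assigned to any of them, and levels of different rows are not compared per length.

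The mitochondrial genome of vertebrates is a small circle that encodes core subunits of the respiratory chain together with the rRNAs and tRNAs needed to translate them. It is transcribed from both strands as long precursor RNAs, and the tRNAs, which lie between the other genes, are cut out and so release the rRNAs and messenger RNAs on either side. Liver cells are rich in mitochondria, and metformin, an oral drug that lowers blood glucose, is known in mammals to act on complex I of the respiratory chain. A read on a tRNA row need not come from a finished tRNA, because precursors and transcripts of the other strand cover the same bases. The libraries were made with a stranded mRNA kit, while the sources used here do not give the strand setting used in counting, so these origins cannot be told apart in the counts.

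The study compared hens whose diet held no metformin (0 mg/kg of body weight, 5 libraries, control 1 to 5) with hens given 75 mg/kg of body weight (10 libraries, metformin 1 to 10). The diets were fed for 40 weeks, from 25 to 65 weeks of age, to 45 hens per treatment group. The labels name no strain. Whether every library stands for its own bird is not stated, and the p-values therefore speak only of the spread among these libraries. Gene reads numbered 21435678 to 26494240 per control library and 8023809 to 41041301 per metformin library. By the share of reads that fell in no gene, the libraries formed 3 sets with gaps of over 5 percentage points. The middle set held all controls (27.8% to 36.3%) and metformin 1, 3 and 4 (37.0% to 43.5%), the low set metformin 2 and 5 (14.6% to 17.5%), and the high set metformin 6 to 10 (51.5% to 55.1%). Since both outer sets lacked controls, set and metformin cannot be told apart there. In whole tissue, fewer cells of a type and less RNA per cell cannot be told apart either.

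Mitochondrial rRNA and tRNA rows together took a few percent of the gene reads. The controls had 4.03%, 1.65%, 1.87%, 1.48% and 2.05% of gene reads on the 24 rows (control 1 to 5 in order), and the metformin libraries ran from 0.241% through a median of 1.79% to 7.60%. Control 1 stood well above the other controls. The group means were 2.21% ± 1.04 (SD, n = 5) and 2.50% ± 2.31 (SD, n = 10), so the difference of 0.288 percentage points was far smaller than the spread within either group. The widest Wilson 95% interval of a single library extended 0.0119 percentage points from its share, for counting error alone.

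The spread within the metformin group followed the library sets. Metformin 1, 3 and 4 had 4.73%, 7.60% and 3.77% of gene reads on the 24 rows, which lay above controls 2 to 5 in each case and above control 1 in metformin 1 and 3. Metformin 2 and 5 had 0.346% and 0.241%, below every control. Metformin 6 to 10 had 2.77%, 1.61%, 0.959%, 1.97% and 1.00%, a range that overlapped that of the controls. The 2 rRNA rows alone held between 1.29% and 3.05% of gene reads in controls. Their share lay between 2.88% and 6.14% in metformin 1, 3 and 4, at 0.268% and 0.212% in metformin 2 and 5, and between 0.681% and 2.20% in metformin 6 to 10.

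**Figure D1:**
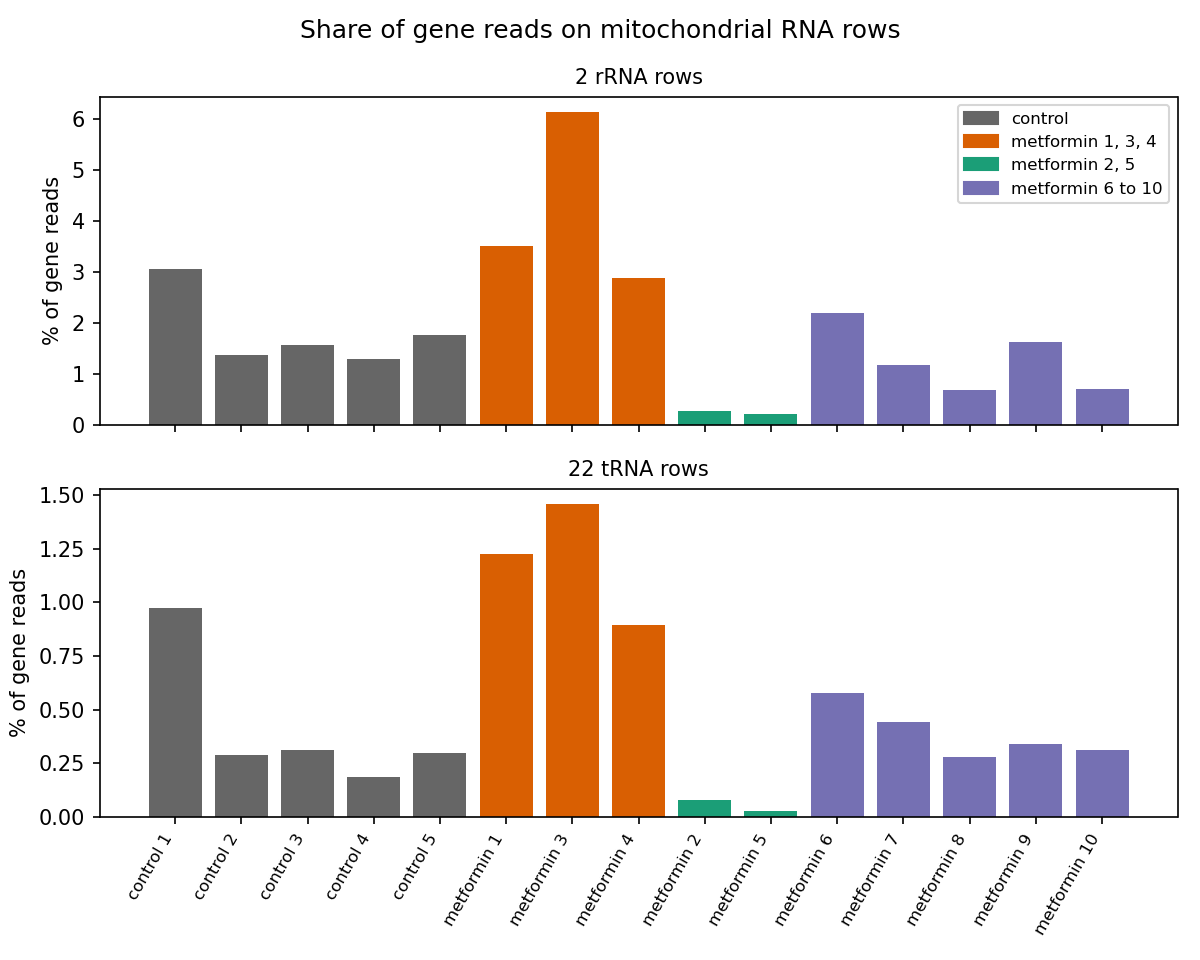
Percent of gene reads in each of the 15 libraries on the 2 rRNA rows (upper panel) and the 22 tRNA rows (lower panel), with bars coloured by group and library set and both axes starting at 0. Metformin 3 has the tallest bars (6.14% and 1.46%), metformin 2 and 5 the shortest, and control 1 is the control nearest to metformin 1 and 4.

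The tRNA rows alone again were highest in metformin 3 and lowest in metformin 5. They took 0.973%, 0.288%, 0.310%, 0.187% and 0.297% of gene reads in control 1 to 5. Metformin 1, 3 and 4 had 1.23%, 1.46% and 0.893%, metformin 2 and 5 had 0.0784% and 0.0291%, and metformin 6 to 10 had 0.278% to 0.578%. With the rRNA reads also taken out of the denominator these shares were 0.190% to 1.00% in controls and 0.0291% to 1.55% with metformin. Of all reads on the 24 rows, tRNA rows held 12.7% to 24.2% in controls and 12.1% to 31.2% with metformin, ranges that overlapped.

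The rRNA rows are the structural RNAs of the large and the small subunit of the mitochondrial ribosome. EYY68_mgr01 stood at 16240, 8360, 7897, 4901 and 7118 CPM in control 1 to 5 (CPM, read counts relative to the TMM-scaled library size) and ran from 904 through a median of 9288 to 44080 CPM with metformin. EYY68_mgr02 stood at 15181, 6355, 10212, 9071 and 10534 CPM in the controls and at 1004, 3389 and 36272 CPM with metformin (lowest, median and highest). For both rows the metformin range enclosed that of the controls. Neither passed the edgeR test over all libraries: the log2 fold changes were 0.49 ± 0.72 (SE, adjusted p = 0.629) for EYY68_mgr01 and -0.25 ± 0.75 (SE, adjusted p = 0.823) for EYY68_mgr02.

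The balance between the rRNA rows differed by set. Reads on EYY68_mgr01 per read on EYY68_mgr02, a ratio that no library scaling can move, were 1.07, 1.32, 0.773, 0.540 and 0.676 in control 1 to 5. They were 1.19, 1.22 and 1.10 in metformin 1, 3 and 4, and 0.768 and 0.901 in metformin 2 and 5, all within the range of the controls. In metformin 6 to 10 the ratios were 2.92, 2.36, 2.40, 3.08 and 2.14, each above all 10 other libraries. In these 5 libraries EYY68_mgr02 was at 1871 to 4906 CPM, below every control, while EYY68_mgr01, at 4003 to 14332 CPM, overlapped the controls.

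Among the tRNA rows, a handful held most reads in controls, and of these EYY68_mgt14 had the most even share. EYY68_mgt14 made up 32.0% to 34.1% of all tRNA reads in the 5 controls, EYY68_mgt20 18.8% to 23.7%, EYY68_mgt17 12.2% to 18.5% and EYY68_mgt07 11.9% to 15.5%. EYY68_mgt04 was less even, at 3.53% of tRNA reads in control 1 and up to 14.6% in control 4. In metformin 1, 3 and 4 the same 4 leading rows had 31.8% to 33.4%, 21.1% to 22.3%, 15.9% to 16.7% and 16.2% to 16.6%. Metformin 2 and 5, with the smallest shares of gene reads on the tRNA rows, had 36.8% and 31.7% of tRNA reads on EYY68_mgt14.

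Metformin 6 to 10 had another composition. The labels give 1 library kit for all 15 libraries, and the sources used here do not say whether strands were counted alike in all of them. A difference in how strands were kept or counted and a difference in transcript levels cannot be told apart in the values of these libraries, in the folds against them or in the calls that rest on them. EYY68_mgt12, which held 0.209% to 1.42% of tRNA reads in controls, held 74.1% to 86.3% there. EYY68_mgt14 was down to 4.40% to 12.6%, and EYY68_mgt17 to 0.136% to 0.256%. Reads on EYY68_mgt12 per read on EYY68_mgt17 lay between 0.0113 and 0.116 in controls, between 0.0169 and 0.0526 in metformin 1, 3 and 4, and between 319 and 635 in metformin 6 to 10, with no overlap between the last and the others.

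**Figure D2:**
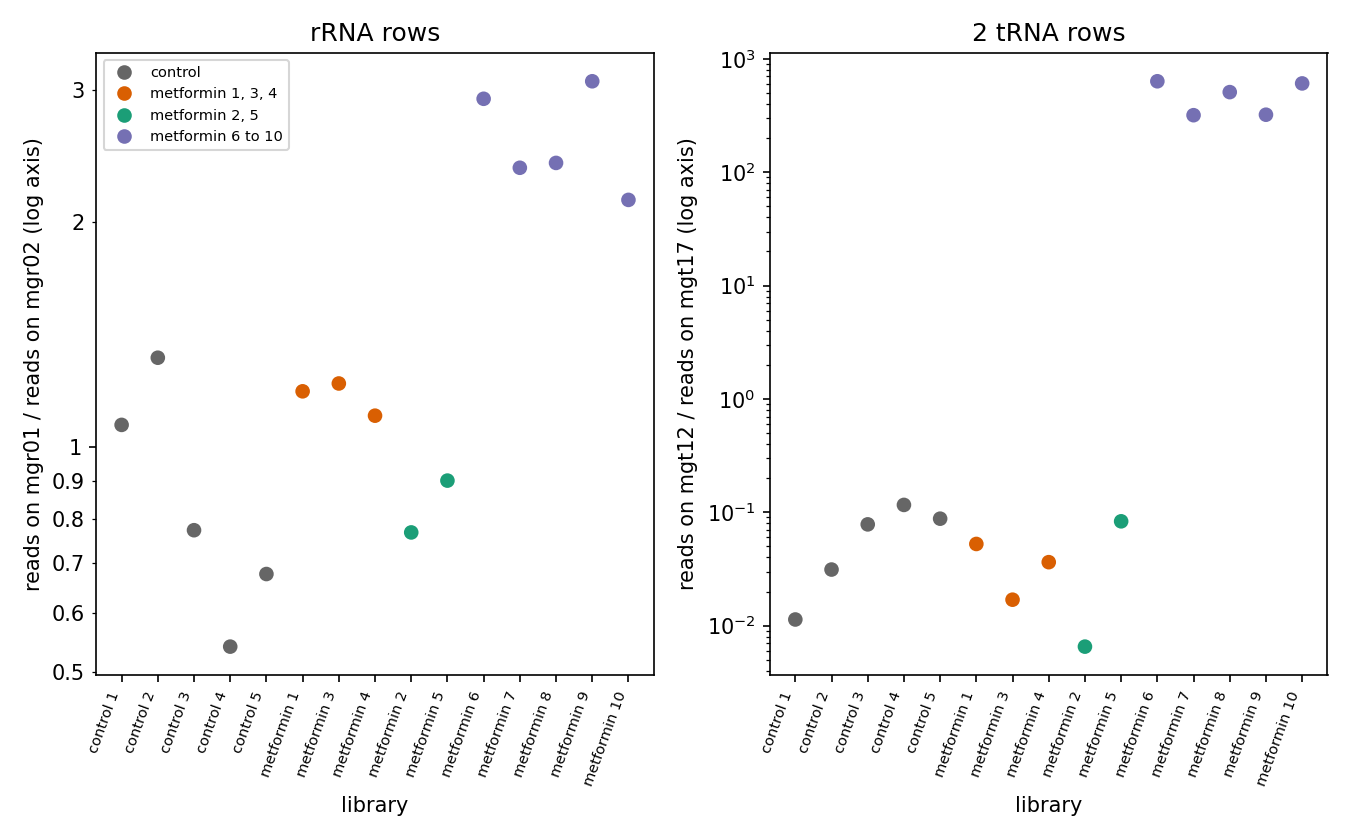
Read ratios within each of the 15 libraries on log axes: EYY68_mgr01 over EYY68_mgr02 (left) and EYY68_mgt12 over EYY68_mgt17 (right), with points coloured by group and library set. Metformin 6 to 10 lie above all other libraries in both panels, at 2.14 to 3.08 and at 319 to 635.

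In CPM, EYY68_mgt12 was at 20.9, 14.5, 36.6, 28.8 and 37.9 in control 1 to 5 and at 119, 53.9 and 53.2 in metformin 1, 3 and 4. In metformin 2 and 5 it was at 0.571 and 2.09 CPM, and in metformin 6 to 10 at 4365, 3344, 2060, 2284 and 2229 CPM. The median of metformin 6 to 10 was 79.2 times that of the controls. EYY68_mgt05 was low everywhere else, at 0.242 to 1.16 CPM in controls and at most 3.53 CPM in metformin 1 to 5, and stood at 35.1 to 72.8 CPM in metformin 6 to 10. EYY68_mgt22 went from 1.60 to 2.41 CPM in controls to 24.0 to 51.9 CPM there, and EYY68_mgt21 from 1.01 to 4.08 CPM to 10.6 to 32.4 CPM.

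Rows on the opposite course held most of the controls' tRNA reads. EYY68_mgt17 was at 1848, 464, 468, 248 and 432 CPM in control 1 to 5 and at 3.67 to 10.5 CPM in metformin 6 to 10, so that the median of the controls was 67.5 times the median of these libraries. EYY68_mgt20, at 382 to 2229 CPM in controls, was at 16.6 to 37.2 CPM, and EYY68_mgt07, at 243 to 1551 CPM in controls, was at 8.07 to 25.0 CPM. The difference was smaller for EYY68_mgt14, at 658 to 3409 CPM in controls and 153 to 349 CPM in metformin 6 to 10. Rows that lay together in the middle set thus came apart: reads on EYY68_mgt14 per read on EYY68_mgt20 lay between 1.40 and 1.74 in controls, between 1.47 and 1.57 in metformin 1, 3 and 4, and between 7.08 and 17.6 in metformin 6 to 10.

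Of the 24 rows, 19 passed the expression filter (both rRNA rows and 17 tRNA rows) and were tested. Among these, 7 had metformin 6 to 10 above all 10 other libraries, where 7.62% of all tested genes did. These were EYY68_mgt05, EYY68_mgt11, EYY68_mgt12, EYY68_mgt15, EYY68_mgt19, EYY68_mgt21 and EYY68_mgt22. With only metformin 6 to 10 left out, EYY68_mgt11 and EYY68_mgt19 did not pass the expression filter, so their place among the 7 is partly set by the filter. Both passed it in the 8 libraries of the middle set alone. The other 5 passed it without metformin 6 to 10. Counted against the controls alone, 8 of the 19 rows had metformin 6 to 10 above all controls (20% of all tested genes) and another 8 had them below all controls (18.1% of all tested genes). In metformin 2 and 5, 18 of the 19 rows lay below all controls, and the exception was EYY68_mgt01. This was so for 31.8% of all tested genes. Metformin 1, 3 and 4 lay above all controls in 9 of the 19 rows, against 2.99% of all tested genes. The rows share 1 genome and 1 set of libraries and are not independent of each other.

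**Figure D3:**
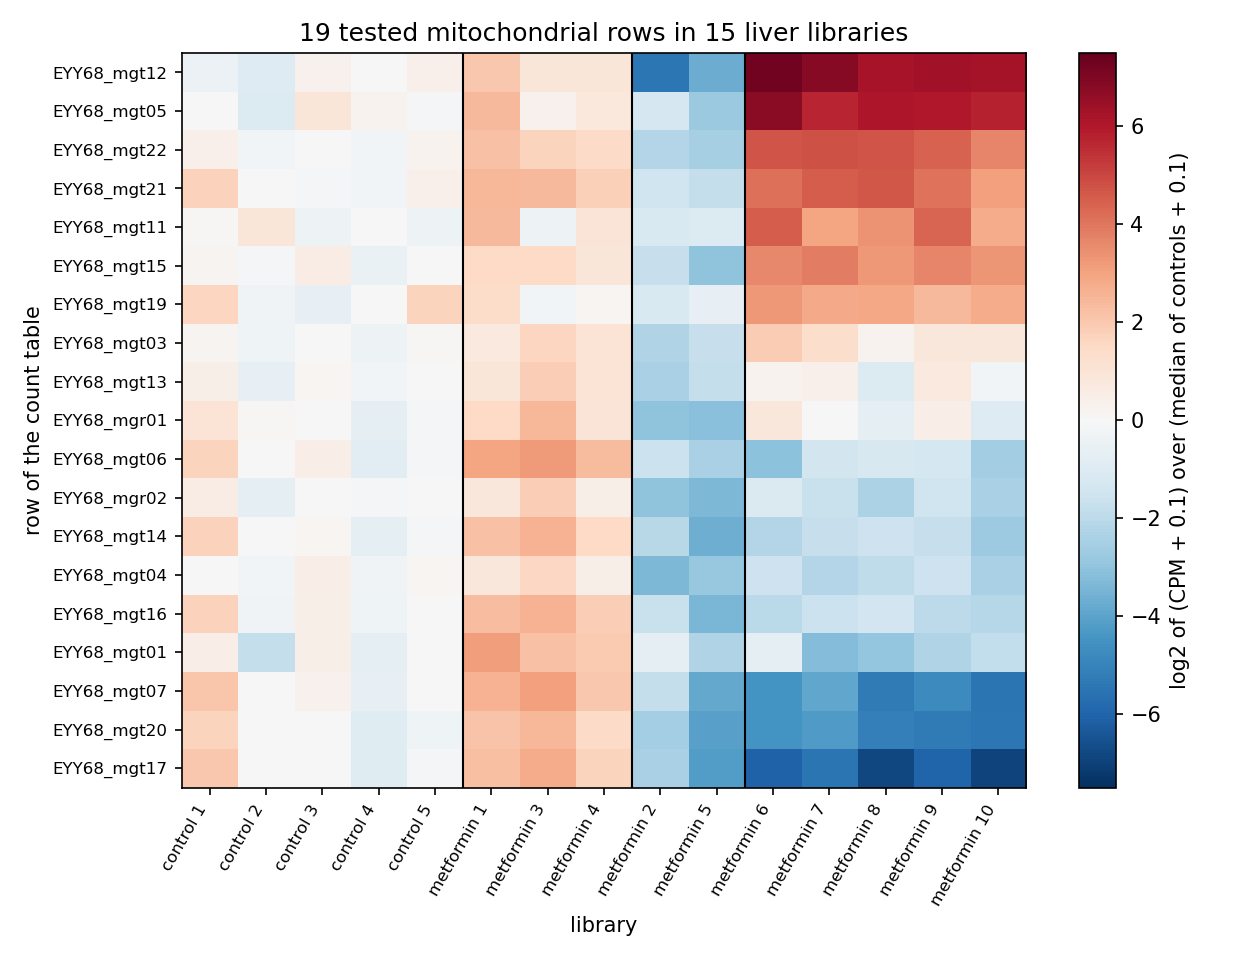
Level of each of the 19 tested rows in each library, as the log2 of CPM plus 0.1 over the median of the controls plus 0.1, with red above and blue below the controls and rows ordered by metformin 6 to 10. Black lines part the controls, metformin 1, 3 and 4, metformin 2 and 5, and metformin 6 to 10. In the last block the upper rows are red and the lower rows blue, while nearly all rows are red in metformin 1, 3 and 4 and blue in metformin 2 and 5.

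In the test of all 10 metformin against all 5 control libraries, 5 of the 19 rows rose (12.5% of all tested genes were called higher) and 0 fell (5.73% were called lower). A gene was called where its edgeR p, adjusted by Benjamini-Hochberg over the 14432 tested genes, was under 0.05. At an unadjusted p under 0.05 there were 6 higher and 0 lower, and DESeq2 called 6 higher and 0 lower. With limma voom and sample weights 1 was called higher and 8 lower. The shares above belong to the adjusted edgeR calls and are no background for these counts. Over all genes DESeq2 called more genes higher than edgeR did, and voom more in both directions. The rows that rose were EYY68_mgt12, by 5.71 ± 1.73 on the log2 scale (SE, adjusted p = 0.0370), EYY68_mgt05 with 5.20 ± 1.53 (SE, adjusted p = 0.0348) and EYY68_mgt22 with 3.61 ± 1.07 (SE, adjusted p = 0.0348), besides EYY68_mgt21 with 2.90 (adjusted p = 0.0446) and EYY68_mgt15 with 2.71 (adjusted p = 0.0497).

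All 5 rows that rose are among those in which metformin 6 to 10 stood above every other library. Of the 19 rows, 0 had all 10 metformin libraries above all controls (0.651% of all tested genes) and 0 had them all below (1.05% of all tested genes). Among the rows that rose, 8 of 10 metformin libraries exceeded every control for EYY68_mgt12, EYY68_mgt15, EYY68_mgt21 and EYY68_mgt22 and 6 of 10 for EYY68_mgt05, and metformin 2 and 5 were below every control in all 5 rows. With metformin 6 to 10 left out, 0 rows were called in either direction, and the log2 fold changes of the 5 rows were 0.63 to 1.09. When any 1 of the 5 controls was left out, 0 rows were called, although the folds stayed close to those above. The all-gene counts of these fits are not given separately here, so the loss cannot be called particular to these rows. Over all single libraries left out, the log2 fold change ran from 5.35 to 5.88 for EYY68_mgt12, from 4.83 to 5.51 for EYY68_mgt05 and from 3.43 to 3.78 for EYY68_mgt22, with adjusted p-values of at most 0.0864, 0.0833 and 0.0824. The rows that led the tRNA reads in controls had log2 fold changes near 0 with wide errors. Examples are 0.03 ± 1.44 (SE, adjusted p = 0.992) for EYY68_mgt17 and 0.11 ± 0.95 (SE, adjusted p = 0.943) for EYY68_mgt14. Their metformin libraries were not evenly placed. For each of EYY68_mgt07, EYY68_mgt14, EYY68_mgt17 and EYY68_mgt20, 7 of 10 lay below every control and 2 above every control. The median of EYY68_mgt17 was 464 CPM in controls and 17.8 CPM with metformin.

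With the library set as a covariate, only metformin 1, 3 and 4 are compared with the controls. In that fit 18 of the 19 rows were higher with metformin, with a median log2 fold change of 1.61 against -0.03 for all tested genes. An unadjusted p under 0.05 was reached by 18 rows, all higher, where 5.74% of all tested genes reached it and were higher. After adjustment 1 row was called, where 0.0346% of all tested genes (5 genes) were: EYY68_mgt22, with a log2 fold change of 1.77 ± 0.26 (SE, adjusted p = 0.0239). Its levels were 2.41, 1.60, 1.84, 1.60 and 2.26 CPM in control 1 to 5 and 8.79, 6.01 and 5.21 CPM in metformin 1, 3 and 4, without overlap.

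Other rows had set-adjusted values of similar size that missed the threshold. EYY68_mgt06 stood at 79.2, 24.9, 34.9, 14.3 and 23.5 CPM in control 1 to 5 and at 195, 228 and 127 CPM in metformin 1, 3 and 4, which did not overlap. Its set-adjusted log2 fold change was 2.38 ± 0.47 (SE, adjusted p = 0.0774). EYY68_mgt01 had 2.67 (adjusted p = 0.0998), EYY68_mgr01 1.61 (adjusted p = 0.187), EYY68_mgr02 1.16 (adjusted p = 0.261), EYY68_mgt17 1.73 (adjusted p = 0.224) and EYY68_mgt14 1.68 (adjusted p = 0.172). EYY68_mgt19 was the row with a negative value, -0.27 (adjusted p = 0.935).

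These set-adjusted calls turned on single libraries. Without control 1, the control with the highest share of mitochondrial reads, 10 rows were called, all higher, among 201 genes called in all. Without control 2, 3 or 5, or without metformin 7, 0 rows were called, and only 1 gene of all tested was called in each of these fits. Without metformin 1, 0 rows and 0 genes were called. Over all single libraries left out, 15 to 18 rows reached an unadjusted p under 0.05. The share of all tested genes that did so in those fits is not given here. The set-adjusted log2 fold change of EYY68_mgt22 ran from 1.52 without metformin 1 (adjusted p = 0.0980) to 1.93 without metformin 4 (adjusted p = 0.0241). In the 8 libraries of the middle set alone, 18 of 19 rows were higher and 0 were called by edgeR (1 gene of all tested, 0.00734%), with an unadjusted p under 0.05 for 17 rows, all higher (5.30% of all tested genes).

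**Figure D4:**
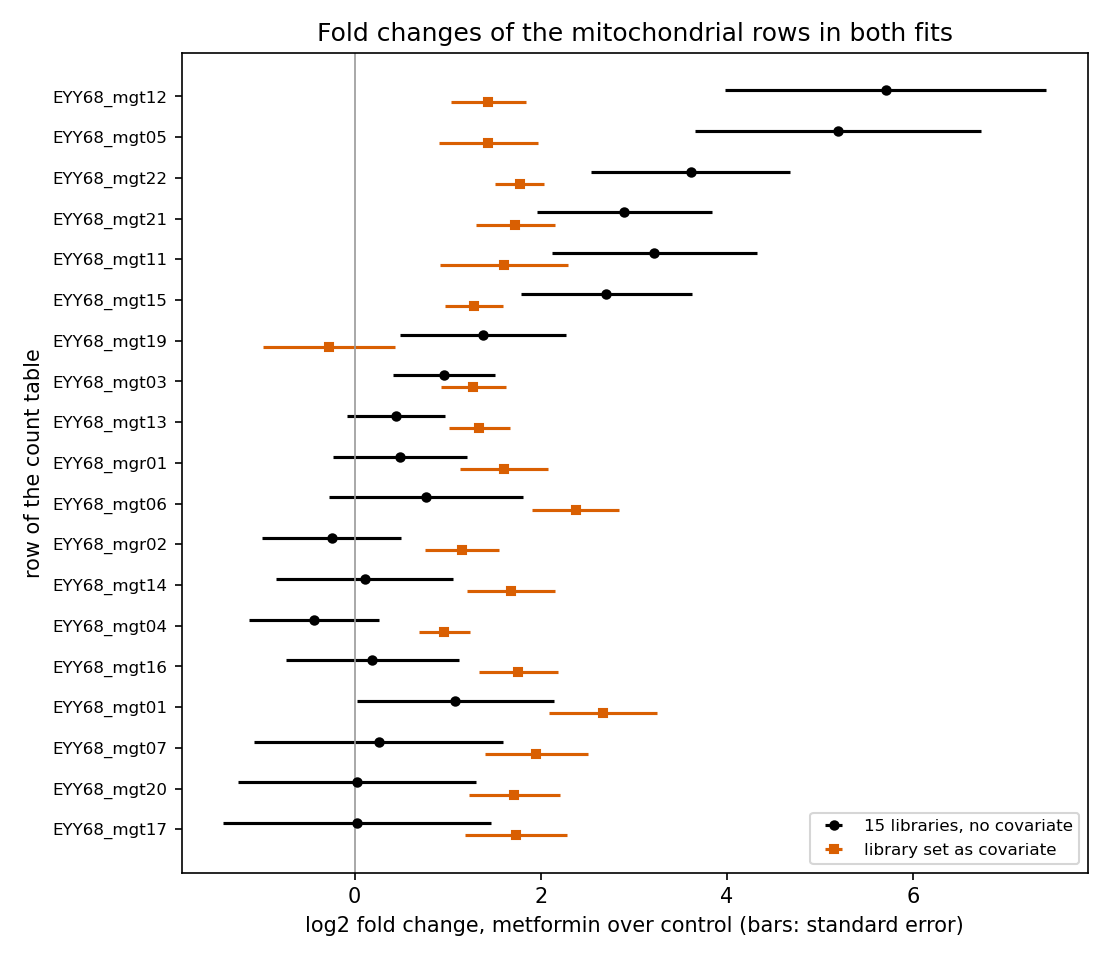
Log2 fold change of metformin over control for the 19 tested rows, with standard errors as bars: black circles from all 15 libraries without a covariate, orange squares with the library set as a covariate. The upper rows reach 5.71 without the covariate, and 18 of the 19 squares lie above 0.

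Some other measures also differed between metformin 1, 3 and 4 and the controls, while others overlapped. The share of reads in no gene was larger in each of metformin 1, 3 and 4 than in every control. LOC112533599, an rRNA gene in the RefSeq table that is not mitochondrial, took 8.36% to 18.4% of gene reads in controls and 25.1%, 27.9% and 9.59% in metformin 1, 3 and 4. The summed level of 10 hepatocyte markers (plasma proteins and urea or amino acid enzymes such as ALB, APOB, TTR and CPS1, none at 0) was 66367 to 87435 CPM in controls and 35406 to 64914 CPM in metformin 1, 3 and 4, without overlap, although 0 of the 10 were called. ALB makes up much of this sum and itself overlapped, at 23748 to 43778 CPM in controls and 13648 to 29226 CPM in these 3 libraries. The median set-adjusted log2 fold change of the 10 was -0.37, with -1.09 for APOA1 (adjusted p = 0.4715) and -0.80 for ALB (adjusted p = 0.473). Only APOB, 0.05 (adjusted p = 0.985), and CPS1, 0.33 (adjusted p = 0.832), had positive values. CPS1 was low, at 6.48 to 12.6 CPM in controls. The part of these measures in the higher mitochondrial rows was not tested. Markers of erythrocytes, which keep a nucleus in birds, summed to 280 to 1260 CPM in controls and 284 to 613 CPM in these 3 libraries (6 genes, 5 tested, 0 called). The 8 leukocyte and Kupffer cell markers summed to 783 to 1494 CPM in controls and 625 to 898 CPM in these 3 libraries. Over all libraries 0 of the 8 rose and 2 fell, C1QA and C1QC (background over all tested genes 12.5% and 5.73%). Among the others, PTPRC, CSF1R and MARCO had positive log2 fold changes there and CD3E, C1QB and CD74 negative ones. The labelled tissue was met by its defining marker in every library, with ALB, serum albumin, at 13648 to 67366 CPM.

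The remaining 5 tRNA rows were near or at 0 and were not tested. EYY68_mgt02 had 10 reads over all 15 libraries, EYY68_mgt18 18 and EYY68_mgt08 37, of which at most 11 were in 1 library. EYY68_mgt09 and EYY68_mgt10 had 0 reads. A count of 0 allows a level of up to 0.0611 CPM in the deepest library and 0.346 CPM in the shallowest (3 reads per library). Whether the absence of reads on EYY68_mgt09 and EYY68_mgt10 came from low levels or from the way reads were counted was not tested.

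Mitochondrial transcripts are made and handled by proteins encoded in the nucleus. Of 18 tested genes of mitochondrial transcription and DNA maintenance, 0 rose and 2 fell (background over all tested genes 12.5% and 5.73%). TFAM, which packages mitochondrial DNA and starts its transcription, was at 18.5 to 32.3 CPM in controls and 14.8 to 24.4 CPM with metformin (log2 fold change -0.16, adjusted p = 0.461). POLRMT, the mitochondrial RNA polymerase, had -0.14 (adjusted p = 0.477) and TFB2M, its initiation factor, -0.08 (adjusted p = 0.749). The members that fell were MPV17, an inner membrane protein needed for mitochondrial DNA upkeep, by 1.52 on the log2 scale (adjusted p = 0.0180) and SSBP1, the single-strand DNA binding protein, by 0.90 (adjusted p = 0.0282). Their set-adjusted values were -0.85 and -0.35, and neither was called there.

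Of 21 tested genes of mitochondrial RNA processing and stability, 5 rose and 0 fell, where 12.5% of all tested genes were called higher and 5.73% lower. HSD17B10, a subunit of the enzyme that cuts the 5′ ends of mitochondrial tRNAs, lay between 0.350 and 1.35 CPM in controls and between 1.35 and 2.67 CPM in metformin 1, 3 and 4. It was at most 0.268 CPM in metformin 2 and 5, and between 66.1 and 109 CPM in metformin 6 to 10. HSD17B10 rose by 5.57 ± 1.57 on the log2 scale (SE, adjusted p = 0.0317), against 1.08 set-adjusted (adjusted p = 0.222). Like EYY68_mgt12, it had metformin 6 to 10 above all 10 other libraries, where 7.62% of all tested genes did. Both also had metformin 2 and 5 below all controls, where 31.8% of all tested genes did. A link between HSD17B10 and EYY68_mgt12 was not tested. PNPT1, an RNA-degrading exonuclease of mitochondria, rose by 1.36 on the log2 scale (adjusted p = 0.0467) and had -0.29 set-adjusted, and FASTK and ANGEL2 rose by 0.92 and 0.74 (adjusted p = 0.0341 and 0.0416), against 0.49 and 0.29 set-adjusted. LRPPRC and SLIRP form a complex that protects mitochondrial messenger RNAs. LRPPRC had 0.60 (adjusted p = 0.0779) and SLIRP -1.25 (adjusted p = 0.0630), the latter at 91.1 to 109 CPM in controls, 83.8 to 95.1 CPM in metformin 1, 3 and 4 and 15.8 to 27.4 CPM in the other 7 libraries. SUPV3L1, the helicase partner of PNPT1, had 0.13 and GRSF1, which binds mitochondrial RNA in granules, -0.16.

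Of 19 tested genes of mitochondrial rRNA modification and ribosome assembly, 1 rose and 1 fell, no larger a share than the 12.5% and close to the 5.73% of all tested genes. ERAL1, a chaperone of the small-subunit rRNA, fell by 0.52 (adjusted p = 0.0476), a call lost with RLE factors and with scaling on nuclear genes alone. YBEY, an RNA endonuclease, was the gene that rose (adjusted p = 0.0279, and adjusted p = 0.461 in the set-adjusted fit). It was at 0 in all controls and at most 1.91 CPM with metformin. YBEY thus passed the expression filter only through metformin libraries, and its place in the count is partly set by the filter. TFB1M, which methylates the small-subunit rRNA, had a log2 fold change of -0.02 and MTERF3 -0.53 (adjusted p = 0.0557). Of 15 tested genes of mitochondrial tRNA modification, 0 rose and 4 fell (background over all tested genes 12.5% and 5.73%), among them TRMT5 by 0.95 (adjusted p = 0.0225), CDK5RAP1 by 0.75 (adjusted p = 0.0243) and YRDC by 0.81 (adjusted p = 0.0249). TRMT5 and YRDC act on tRNA bases next to the anticodon. Set-adjusted, these 3 had -0.76, -0.48 and -0.42, and none was called. Of 10 tested mitochondrial translation factors, 0 rose and 2 fell (background over all tested genes 12.5% and 5.73%), with MTRF1, a release factor, lower by 0.70 (adjusted p = 0.0180; -0.49 set-adjusted) and MTIF3, an initiation factor, by 0.76 (adjusted p = 0.0424; -0.11 set-adjusted).

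Regulators and gauges of mitochondrial content were mixed. Of 13 tested biogenesis regulators 2 rose and 0 fell, the former near the 12.5% of all tested genes called higher (5.73% lower). GABPA, a subunit of nuclear respiratory factor 2, rose by 0.88 (adjusted p = 0.0283) and ESRRG, an oestrogen-related receptor, by 2.33 (adjusted p = 0.0483), with 0.21 and -0.26 set-adjusted, while PPARGC1A had -0.11 and NRF1 -0.16. Of 17 tested genes of mitochondrial membranes and matrix 3 rose and 2 fell (background over all tested genes 12.5% and 5.73%). CS, citrate synthase, often used as a gauge of mitochondrial content, was at 32.4 to 88.4 CPM in controls and 69.5 to 158 CPM with metformin, and at 116 to 158 CPM in metformin 1, 3 and 4, above every control. CS rose by 0.86 on the log2 scale (adjusted p = 0.0409). With the set as a covariate the value was 1.23 (adjusted p = 0.121), which missed the threshold. TOMM20, a receptor of the import pore, fell by 0.58 (adjusted p = 0.0348; -0.57 set-adjusted), and VDAC1, the outer membrane channel, had 1.17 (adjusted p = 0.0615; -0.06 set-adjusted).

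Nuclear genes encode the other subunits of the complexes whose core is encoded in mitochondria. Of 34 tested genes listed here under complex I 0 rose and 8 fell, of 8 under complex III 0 and 1, of 8 under complex IV 0 and 4, and of 15 under complex V 0 and 3, where 12.5% of all tested genes were called higher and 5.73% lower. NDUFA4, which fell (log2 fold change -0.96, adjusted p = 0.0416), was counted under complex I and not under complex IV. Taken over all libraries, the list medians of the log2 fold change were -0.74, -0.49, -1.01 and -0.80. The set-adjusted medians were -0.20, -0.13, -0.26 and -0.13, beside 0.03 and -0.03 for all tested genes. In the set-adjusted fit 0 genes of any of the nuclear lists above were called by edgeR.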

How the data were processed

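Raw read counts per gene were deposited by the authors as 1 table. The submitters' processing notes name HTSeq 0.12.3, STAR 2.7.11b, Trim Galore 0.6.4 and FastQC 0.12.0, and GRCg6a, the assembly also called galGal6. Each library started from 200 ng of RNA, per the labels' protocols. Reads in the 5 closing rows, which name no gene, entered neither library sizes nor tests; the report gives the share in no gene. The counts were tested here with edgeR 4.0.16 in R 4.3.3 (quasi-likelihood test, TMM factors, default expression filter, Benjamini-Hochberg adjustment over all tested genes, threshold 0.05, two-sided), and CPM values use the TMM-scaled library size. The members, lists and library sets were chosen with earlier results of these data known. Named genes are all member rows, 14 fixed genes and the 3 genes of smallest p in each nuclear list, of which the report gives a part; PPARGC1A and NRF1 are among the fixed. Sums over members got no test. Alternatives were DESeq2 1.42.0, limma 3.58.1 voom, other scalings and filters, the replicate block, the library set and left-out libraries. The calculation was tested on simulated counts that held no library sets, so that test cannot show how often such sets give false calls. No library pair agreed within sampling noise (smallest chi-square per degree of freedom 90.6 over 2000 genes).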

Additional observations from a re-analysis of the deposited data

Results flagged for a closer look

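In 50 combinations of a group and a measure, 14 had a single library whose gap to its nearest neighbour was large against the range of its group. The nominal rate of this rule by chance is about 1 in 20, and it was not measured in these data. The measures share libraries and are not independent. Control 1 stood above the other controls in the share of gene reads on all 24 mitochondrial rows (4.03%, the next control 2.05%), on the rRNA rows (3.05%, next 1.75%) and on the tRNA rows (0.973%, next 0.310%). It also stood apart in CPM for EYY68_mgt07 (1551, next 459), EYY68_mgt14 (3409, next 1156), EYY68_mgt16 (427, next 173), EYY68_mgt17 (1848, next 468), EYY68_mgt20 (2229, next 740) and EYY68_mgt21 (4.08, next 1.55). In each of these control 1 lay on the side of metformin 1, 3 and 4. Control 2 stood apart for EYY68_mgt11 at 0.484 CPM (next 0.233), a row with at most 10 reads per control library.

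Metformin 3 stood above the other metformin libraries for EYY68_mgr01 (44080 CPM, next 21972), EYY68_mgr02 (36272 CPM, next 18522) and EYY68_mgt13 (206 CPM, next 113), and metformin 1 for EYY68_mgt01 (17.8 CPM, next 9.15).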

How the results depend on the processing

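The replicate numbers are not stated to pair libraries, and same-numbered control and metformin libraries had correlations of deviations of -0.040 to 0.069. Metformin 6 to 10 have no control of the same number, so the fit with the replicate block (numbers 1 to 5) also left them out. It called 0 mitochondrial rows and 0 genes in either direction, as leaving out metformin 6 to 10 without a block did, and EYY68_mgr01 (-0.15), EYY68_mgt05 (-0.12), EYY68_mgt12 (-0.62) and EYY68_mgt15 (-0.056) turned sign (without the block, the last 3 had 0.77, 0.74 and 0.63 on the same libraries). Called higher among the rows were 3 without a filter, 1 with voom (8 lower), 1 with the library set as covariate and 0 in the middle set or without metformin 6 to 10, against 5 as reported. Other scalings and filters, DESeq2 and leaving out metformin 2 and 5 gave 5 to 7. Over all genes, 1805 higher and 827 lower as reported became 3125 higher with DESeq2, 3323 and 4001 with voom, 4 and 1 with the set covariate, 0 and 1 in the middle set, 0 and 0 without metformin 6 to 10, and 366 lower without metformin 2 and 5. Leaving out 1 library at a time gave 0 to 6 rows higher and 0 lower, 0 to 3011 genes higher and 0 to 2293 lower, with 0 rows without any control or without metformin 8 and 1 without metformin 7. The difference of mean shares was 0.29 percentage points for all rows and 0.15 for tRNA rows, 3.16 and 0.78 in the middle set, and -0.28 to 0.74 and 0.05 to 0.29 with 1 library left out. Log2 fold changes that turned sign were, with voom, EYY68_mgr01 -0.24, EYY68_mgt01 -1.42, EYY68_mgt06 -1.50, EYY68_mgt07 -4.05, EYY68_mgt14 -1.79, EYY68_mgt16 -1.67, EYY68_mgt17 -4.99 and EYY68_mgt20 -4.13. With the set covariate they were EYY68_mgr02 1.16, EYY68_mgt04 0.96 and EYY68_mgt19 -0.27, and in the middle set 1.17, 0.98 and -0.25. Scaling by the rRNA rows gave EYY68_mgt07 -0.36, EYY68_mgt14 -0.24, EYY68_mgt16 -0.073, EYY68_mgt17 -0.66 and EYY68_mgt20 -0.63. Without metformin 6 to 10, EYY68_mgr02 had 0.49 and EYY68_mgt04 0.31, and without metformin 2 and 5 EYY68_mgr02 had 0.057. With 1 library left out, EYY68_mgt07 ran from -0.43 to 0.99, EYY68_mgt14 from -0.49 to 0.70, EYY68_mgt16 from -0.33 to 0.73, EYY68_mgt17 from -0.69 to 0.80 and EYY68_mgt20 from -0.62 to 0.65. The causes were not tested. The rRNA-row scaling, the tRNA share, the left-out sets and the set-adjusted values without each library were chosen after seeing the data. The planned share of protein genes and scaling within mitochondrial mRNAs were not run, since no rows were found under the mitochondrial protein gene symbols looked for.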

Other observations

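A row named ARIH1_1 was chosen after its values were seen, because it, like the mitochondrial tRNA rows, was highest in control 1 among controls and higher still in metformin 1 and 3. It took 1.499%, 0.222%, 0.455%, 0.257% and 0.333% of gene reads in control 1 to 5 and 2.98%, 2.85% and 2.02% in metformin 1, 3 and 4. In metformin 2 and 5 it took 0.331% and 0.0619%, and in metformin 6 to 10 0.289% to 0.686%. That control 1 was the control nearest to metformin 1, 3 and 4 follows from the choice of the row. Its reads per tRNA read lay between 0.771 and 1.54 in controls, between 1.96 and 2.43 in metformin 1, 3 and 4, and between 0.692 and 1.26 in metformin 6 to 10, and were 4.22 and 2.13 in metformin 2 and 5, so the ratio was not constant. The rRNA row LOC112533599 did not keep step with the mitochondrial rRNA rows in every library: metformin 6 had 0.465% of gene reads on it and 2.20% on the mitochondrial rRNA rows, while metformin 8 had 8.16% and 0.681%. Metformin 10 had 0.0104% of gene reads on VTG2, a yolk precursor gene, against 1.33% to 8.53% in the other 14 libraries, while its share on the mitochondrial rows, 1.00%, lay within the 0.959% to 2.77% of metformin 6 to 9.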
